A study of Mus musculus with 29 samples.

Results

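Double mutant megakaryocyte-erythrocyte progenitors (MEPs) were compared with control MEPs by RNA-seq. The 6 double mutant libraries are those titled SclCre, JAK2V617F and Ezh2 -/-, and the 5 control libraries are those titled ScleCre alone, with Ezh2 +/+ and no V617F. They were chosen by title and make up 11 of the 29 libraries of the series. All mice of both groups carried the Cre transgene, which is named for Scl (Tal1), a transcription factor of blood stem and progenitor cells. The double mutants were all female, and the controls were 2 males and 3 females. Ezh2 -/- alone (4 libraries, 3 female and 1 male) and V617F alone (4 libraries, 3 female and 1 male) served to show where the double mutant differed from each single mutant. Libraries of Ezh2 +/- mice with and without V617F were not compared here. They entered the fit, and so helped to set the spread, the term for sex, the scaling and which genes were tested. The age of the mice, the time of recombination, the sorting gates, whether the V617F allele is of mouse or human origin and whether a library pools animals are not stated in the labels. The labels call the libraries replicates without saying that each is a separate mouse, so p-values speak only to the spread among these libraries, part of which may be technical.

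MEPs are the bone marrow progenitors from which platelet-forming megakaryocytes and red cells arise. EZH2 is the catalytic subunit of Polycomb repressive complex 2 (PRC2), which methylates lysine 27 of histone H3 and keeps developmental and lineage genes silent. JAK2 V617F is a constitutively active form of the kinase through which the erythropoietin receptor and other cytokine receptors signal to STAT5, and it is the common driver mutation of the myeloproliferative neoplasms. Loss of EZH2 together with V617F is known from mouse models of myelofibrosis, a disease in which abnormal megakaryocytes accumulate in a scarred marrow.

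Libraries held 31.6 to 47.1 M counts in the double mutants and 34.8 to 59.4 M in the controls. Levels are read counts scaled for library size (CPM), and changes are log2 fold changes of the double mutant over the control ± SE from edgeR's quasi-likelihood test with a term for sex. A gene is called higher or lower where its p, adjusted by Benjamini and Hochberg over 13928 tested genes, is under 0.05. Control replicate 5 stood apart from the other 4 controls. It had summed levels of 393 against 66.5 to 138 CPM for 25 granulocyte genes, and of 84.3 against 11.3 to 18.3 CPM for 8 markers that an MEP sort should remove. Its 15 MEP identity genes summed to 3922 CPM, against 4248 to 4292 CPM in the other controls. Counts for the megakaryocyte, granulocyte, monocyte and T cell genes, and for some other lists, are therefore also given without it.

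Defining genes of MEPs were expressed in both groups. Gata1, the master regulator of both lineages, averaged 230 CPM in double mutants and 242 CPM in controls, and Klf1, the erythroid factor, averaged 229 and 244 CPM in the same order. Of the 15 identity genes, 5 were higher and 3 were lower in double mutants (53.3% called, beside 41.4% of all genes). Gata2 reached 219, 274 and 286 CPM (lowest, median and highest library) in double mutants, against 92.9 to 186 CPM in controls (log2 0.91 ± 0.243, adjusted p = 0.0044). Epor, the erythropoietin receptor, measured 96.4, 118 and 128 CPM in double mutants and 147 to 177 CPM in controls (log2 -0.47 ± 0.115, adjusted p = 0.00199). The groups did not overlap in either gene. Among the 8 markers that the sort should remove, 1 was called higher and 1, Cd3e, lower. Without control replicate 5 the count higher was 3. Their summed level was 21.4 to 66.3 CPM in double mutants and 11.3 to 84.3 CPM in controls.

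Ezh2 RNA matched the genotype in every library. It measured 51.2, 54.9 and 59.5 CPM (lowest, median and highest) in double mutants, 67.9 to 79.5 CPM in Ezh2 -/- alone, 244 to 313 CPM in V617F alone and 269 to 319 CPM in controls. The log2 fold change against controls was -2.45 ± 0.0824 (adjusted p = 2.03e-17), and Ezh2 was also lower than in Ezh2 -/- alone (log2 -0.41, adjusted p = 0.00095). Which exons the deletion removes is not given, so the remaining reads cannot be placed within the gene. Jak2, which carries the activating mutation, measured 227 to 244 CPM in double mutants, 165 to 188 CPM in Ezh2 -/- alone, 220 to 243 CPM in V617F alone and 199 to 223 CPM in controls. Its log2 change against controls of 0.16 ± 0.0485 passed the test (adjusted p = 0.00947). Counts per gene do not distinguish the mutant allele, so this level does not check the V617F label.

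**Figure D1:**
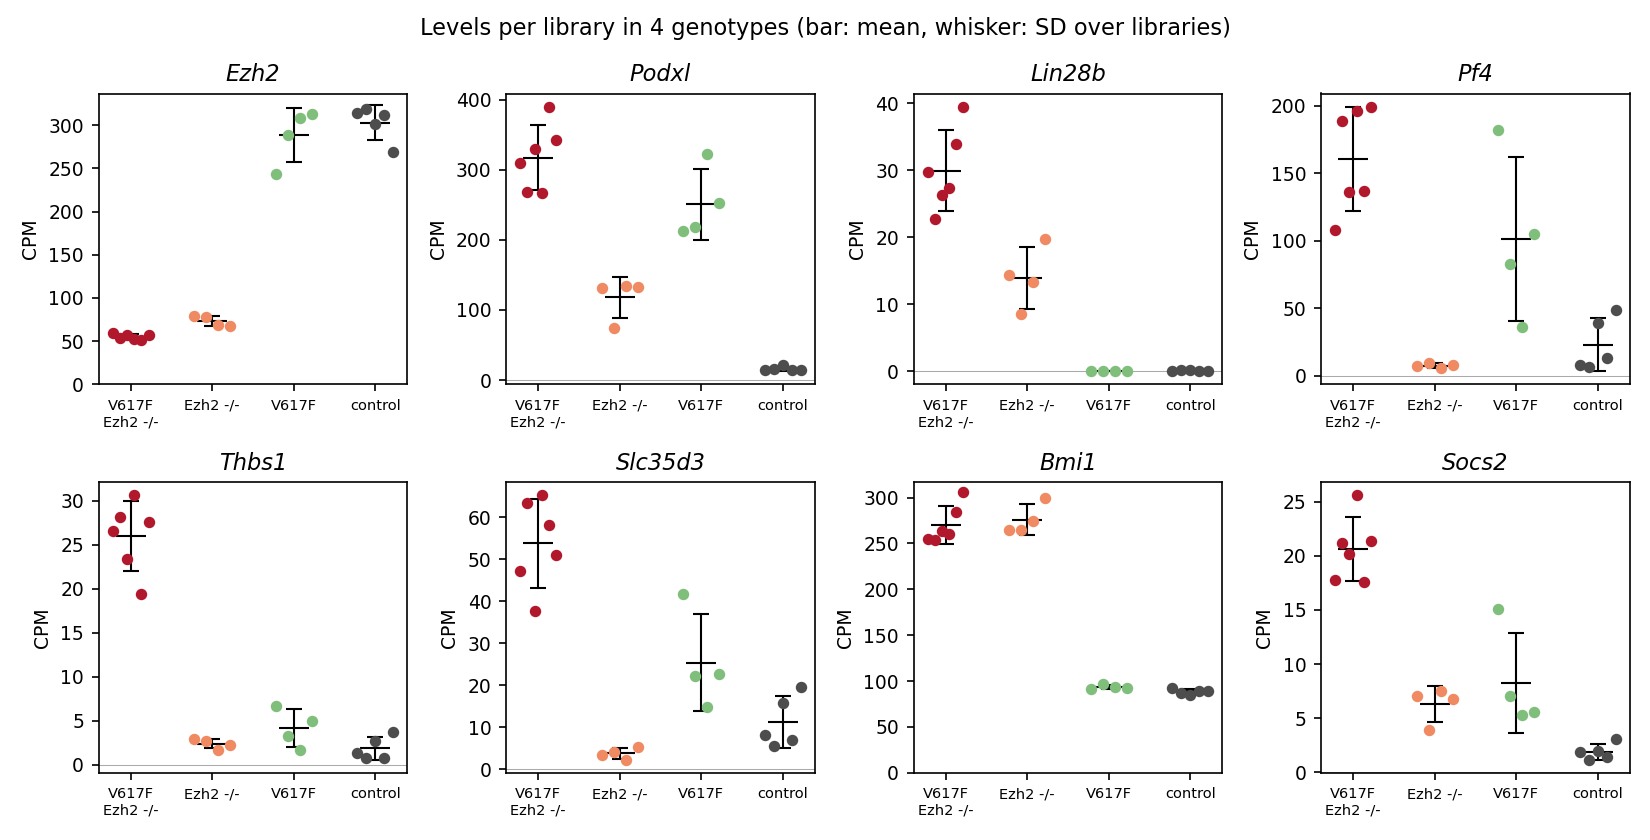
Level in CPM (vertical axes, linear, one panel per gene) in each library of the double mutant (6), Ezh2 -/- alone (4), V617F alone (4) and control (5), with horizontal bars for means and whiskers for SD. Ezh2 was low in both Ezh2 -/- groups, Lin28b and Bmi1 were high in the same 2 groups, Podxl was high in all 3 mutant groups, and Thbs1 was highest in the double mutant.

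The double mutant differed from control in 5766 of 13928 genes (41.4% of those tested), of which 2750 were higher (19.7%) and 3016 were lower (21.7%). Large differences were mostly upward, with 1439 genes at least 2-fold higher (10.3%) and 476 at least 2-fold lower (3.42%). In 2216 genes (15.9%) every double mutant library lay above every control, and in 1862 (13.4%) every one lay below. With the female libraries alone, 4430 genes were called, 2341 higher and 2089 lower. The single mutants, set against the same controls, differed in 3307 genes for Ezh2 -/- alone (23.7% of those tested, with 11.5% higher and 12.2% lower) and in 3288 for V617F alone (23.6%, with 9.73% higher and 13.9% lower).

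**Figure D2:**
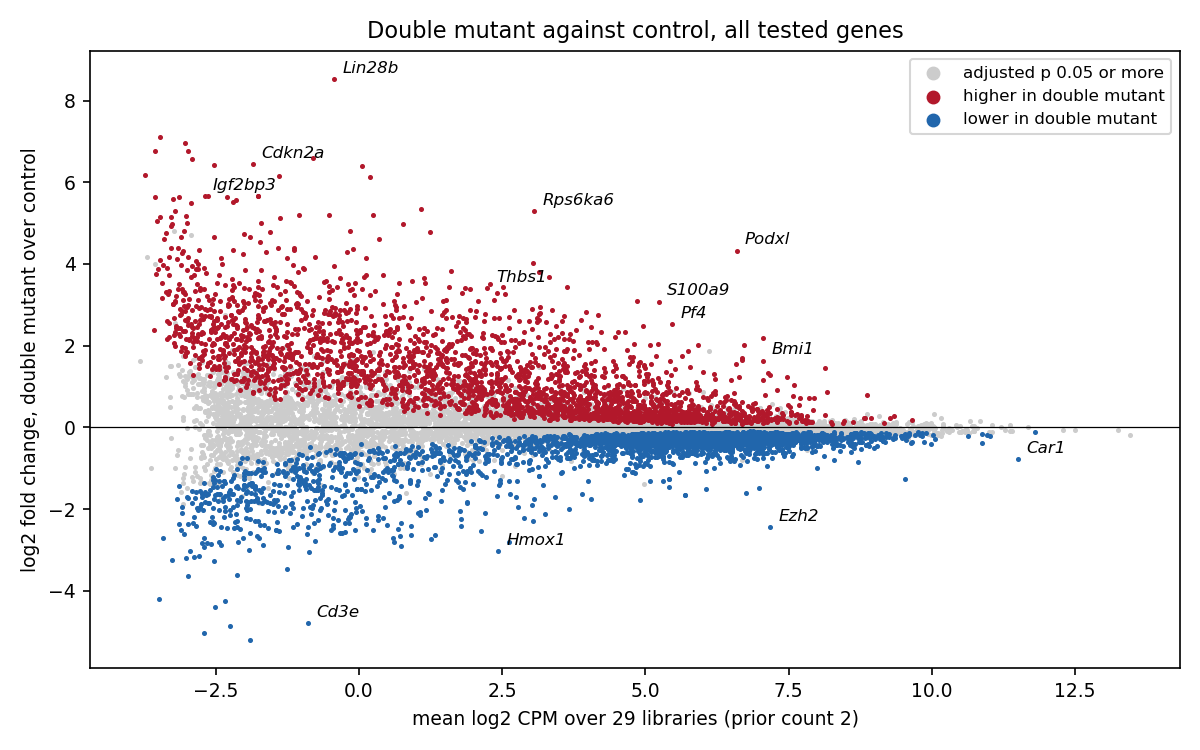
Log2 fold change of the double mutant over control (vertical axis) against mean log2 CPM over 29 libraries (horizontal axis) for each of 13928 tested genes, coloured by the test. Red points (2750, higher) reach log2 8.53 at Lin28b, and among the blue points (3016, lower) Ezh2 lies at -2.45 and Cd3e at -4.79.

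Fetal-type genes were among the largest upward changes. Lin28b, an RNA-binding protein of fetal stem cells that blocks let-7 microRNAs, measured 22.7, 28.6 and 39.5 CPM in double mutants. It measured 8.51, 13.3, 14.3 and 19.8 CPM in Ezh2 -/- alone, 0.0456 to 0.109 CPM in V617F alone and 0.0293 to 0.165 CPM in controls. The 5 controls held 22 Lin28b counts together, which limits the precision of the fold. Double mutant libraries all lay above those of the other 3 groups (log2 8.53 ± 0.333 against controls, adjusted p = 5.11e-16, and log2 1.30 against Ezh2 -/- alone, adjusted p = 0.000378). Of 9 fetal-type genes 7 had enough counts to be tested. Of these 5 were higher and the other 2 did not pass the test, with a median log2 change of 3.36, beside -0.02 over all genes. That median is the value of a gene near 0 in controls, and it was 4.765 without control replicate 5 and 0.73 with no filter on low counts. Genes near 0 in controls can enter the test through mutant libraries alone, so these counts do not describe the untested members. Hmga2, a fetal chromatin protein, measured 1.67 to 2.74 CPM in double mutants and 0 to 0.182 CPM in controls. Igf2bp3, another RNA-binding protein of fetal cells, measured 0.338 to 1.33 CPM in double mutants and 4 counts in all 5 controls together (0 to 0.0331 CPM), while in Ezh2 -/- alone it measured 0.701 to 1.95 CPM. Lin28a, the paralog of Lin28b, was instead near its double mutant level in V617F alone, at 0.189 to 0.974 CPM in double mutants, 0 to 0.0814 CPM in Ezh2 -/- alone, 0.297 to 0.822 CPM in V617F alone and 0 to 0.132 CPM in controls.

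Upstream sequences of 4 genes are shown as examples of more and less CG-rich promoters among the genes that moved. Each run is the 250 bases before the RefSeq start site, read 5′ to 3′ along the gene in assembly GRCm38.p6, with the dinucleotide CG in capitals. Lin28b (chr10:45470202-45470451, minus strand) and the imprinted gene Plagl1 (chr10:13090582-13090831, plus strand) were higher in double mutants, as was the platelet gene Pf4 (chr5:90772185-90772434, plus strand), and the macrophage gene Cd68 (chr11:69666171-69666420, minus strand) was lower.
Lin28b: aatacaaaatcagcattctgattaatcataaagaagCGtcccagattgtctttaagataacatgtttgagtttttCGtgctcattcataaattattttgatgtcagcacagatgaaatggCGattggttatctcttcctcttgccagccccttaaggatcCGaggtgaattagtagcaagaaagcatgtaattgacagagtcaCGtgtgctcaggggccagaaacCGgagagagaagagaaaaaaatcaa
Plagl1: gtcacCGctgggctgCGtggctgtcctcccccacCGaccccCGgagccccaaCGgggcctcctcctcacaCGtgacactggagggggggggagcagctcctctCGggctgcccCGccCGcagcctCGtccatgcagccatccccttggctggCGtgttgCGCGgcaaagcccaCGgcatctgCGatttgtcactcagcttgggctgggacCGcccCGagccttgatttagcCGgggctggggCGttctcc
Pf4: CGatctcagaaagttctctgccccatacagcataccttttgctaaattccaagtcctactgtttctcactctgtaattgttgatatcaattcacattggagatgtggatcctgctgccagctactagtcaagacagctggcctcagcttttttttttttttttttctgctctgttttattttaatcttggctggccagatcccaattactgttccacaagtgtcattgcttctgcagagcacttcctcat
Cd68: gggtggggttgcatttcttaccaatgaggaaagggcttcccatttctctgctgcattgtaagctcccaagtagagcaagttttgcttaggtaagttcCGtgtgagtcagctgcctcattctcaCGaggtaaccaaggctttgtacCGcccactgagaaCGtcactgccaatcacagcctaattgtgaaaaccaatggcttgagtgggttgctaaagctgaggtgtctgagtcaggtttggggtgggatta

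These windows held 6 CG in Lin28b, 19 in Plagl1, 1 in Pf4 and 4 in Cd68. Of the 243 genes named or tabulated here, 185 had an entry in the promoter table, which holds 10949 of the 13928 tested genes. Where a gene had more than 1 listed start, the highest CG count was taken, and a motif before any start counted. Over such windows of 250 bases, the median was 16 CG for all tested genes with an entry. It was 14 for the genes at least 2-fold higher and 4.5 for those at least 2-fold lower. Among 12 of the 15 genes with the largest upward change the median was 19.5, and among 31 megakaryocyte genes it was 5. The STAT-type motif TTCNNNGAA, which reads the same on both strands, was present in 3 of 16 JAK-STAT5 target promoters (18.8%) and in 7.25% of all. It was present in 0 of 12 promoters of the genes with the largest upward change, in 6.75% of the genes at least 2-fold higher and in 9.63% of those at least 2-fold lower. The GATA-type motif AGATAA, counted on either strand as AGATAA or TTATCT, was present in 5 of 31 megakaryocyte promoters (16.1%) and in 7.73% of all. It was present in 3 of 12 promoters of the genes with the largest upward change, in 96 of 1096 of the genes at least 2-fold higher and in 42 of 322 of those at least 2-fold lower. A match describes letters in the window and is not evidence of binding.

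Some Polycomb genes were called higher and some lower. Bmi1, a subunit of the PRC1 complex, was the PRC1 gene with the lowest adjusted p, at 254, 262 and 306 CPM in double mutants, 265 to 300 CPM in Ezh2 -/- alone, 91.8 to 97.1 CPM in V617F alone and 85.1 to 92.9 CPM in controls (log2 1.64 ± 0.0526, adjusted p = 1.34e-17). The 2 groups that lack Ezh2 overlapped each other and lay wholly above the groups that have it. Of 22 PRC1 genes 8 were higher and 6 lower (63.6% called), and of 12 PRC2 genes 3 were higher and 3 lower (50% called). Over all genes 41.4% were called, 19.7% higher and 21.7% lower, so the PRC2 counts are near those shares. Epop, an accessory PRC2 subunit, averaged 17.3 ± 2.18 CPM in double mutants and 6.14 ± 1.16 CPM in controls (SD, n = 6 and 5; adjusted p = 8.34e-08). Jarid2, which helps to recruit PRC2, averaged 97.6 ± 7.96 CPM in double mutants and 66.3 ± 4.58 CPM in controls, and was also higher than in Ezh2 -/- alone (log2 0.44, adjusted p = 0.00034) and in V617F alone (log2 0.37, adjusted p = 0.00109). Eed, a core subunit, was lower (log2 -0.31 ± 0.0814, adjusted p = 0.0036).

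Developmental regulators that entered the test were mostly higher. Of 33 Hox genes, homeobox factors of body patterning and blood stem cells, 15 had enough counts to be tested. Of these 11 were higher and the other 4 did not pass the test (median log2 1.155). A gene near 0 in controls can enter the test through mutant libraries alone, so these counts do not describe the untested members. Of 8 tested genes for the Pbx, Meis and Pknox partners of Hox factors 6 were higher and 1 lower (median log2 1.31). Without control replicate 4 the Hox count dropped to 7. Hoxa10 measured 8.07, 9.67 and 13.5 CPM in double mutants, 2.17 to 4.18 CPM in Ezh2 -/- alone, 2.16 to 5.99 CPM in V617F alone and 0.567 to 2.17 CPM in controls, and differed from all 3 (adjusted p = 0.00134, 0.0063 and 4.29e-07 in that order). Pbx3 measured 34.5 to 39.2 CPM in double mutants and 31.2 to 32.8 CPM in Ezh2 -/- alone, against 8.14 to 16.4 CPM in V617F alone and 8.3 to 9.13 CPM in controls. Meis1 had another pattern, with its lowest mean of the 4 groups in Ezh2 -/- alone. It encodes a leukaemia-associated stem cell factor and measured 56, 66.3 and 93.9 CPM in double mutants, 8.37 to 15.8 CPM in Ezh2 -/- alone, 22.7 to 108 CPM in V617F alone and 14 to 44.6 CPM in controls.

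Imprinted genes and cell cycle inhibitors included several that were near 0 in controls. Of 27 imprinted genes 18 had enough counts to be tested, and of these 11 were higher and 3 lower (median log2 0.90). As with the Hox genes, members near 0 in controls can enter the test through mutant libraries alone. The counts and median therefore do not describe the untested members. Peg10 measured 22.4 to 35.3 CPM in double mutants, 26.3 to 41.5 CPM in Ezh2 -/- alone, 2.94 to 5.63 CPM in V617F alone and 2.62 to 5.67 CPM in controls. Plagl1, a zinc finger factor of the imprinted network, measured 1.37, 2.36 and 3.22 CPM in double mutants, against at most 0.387 CPM in Ezh2 -/- alone, 0.441 CPM in V617F alone and 0.149 CPM in controls (log2 4.54 ± 0.59 against controls, adjusted p = 1.52e-06). The controls held 22 Plagl1 counts in all, so this fold too rests on few counts. Its differences from both single mutants were called too (log2 3.23, adjusted p = 0.000378, and log2 3.20, adjusted p = 0.000168). Kcnq1ot1, the long noncoding RNA of an imprinted domain, was lower, at 14.5 to 17.9 CPM in double mutants and 20.1 to 49.8 CPM in controls. Cdkn2a, the locus of the p16 and p19 growth inhibitors and a classic PRC2 target, measured 1.35 to 3.75 CPM in double mutants, 4.08 to 8.33 CPM in Ezh2 -/- alone, 0 to 1.04 CPM in V617F alone and 0 to 0.0331 CPM in controls, where 4 counts were found in all. Its double mutant level was below that of Ezh2 -/- alone (log2 -1.81, adjusted p = 0.0147). Of 7 CDK inhibitor genes 3 were higher and 1 lower.

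**Figure D3:**
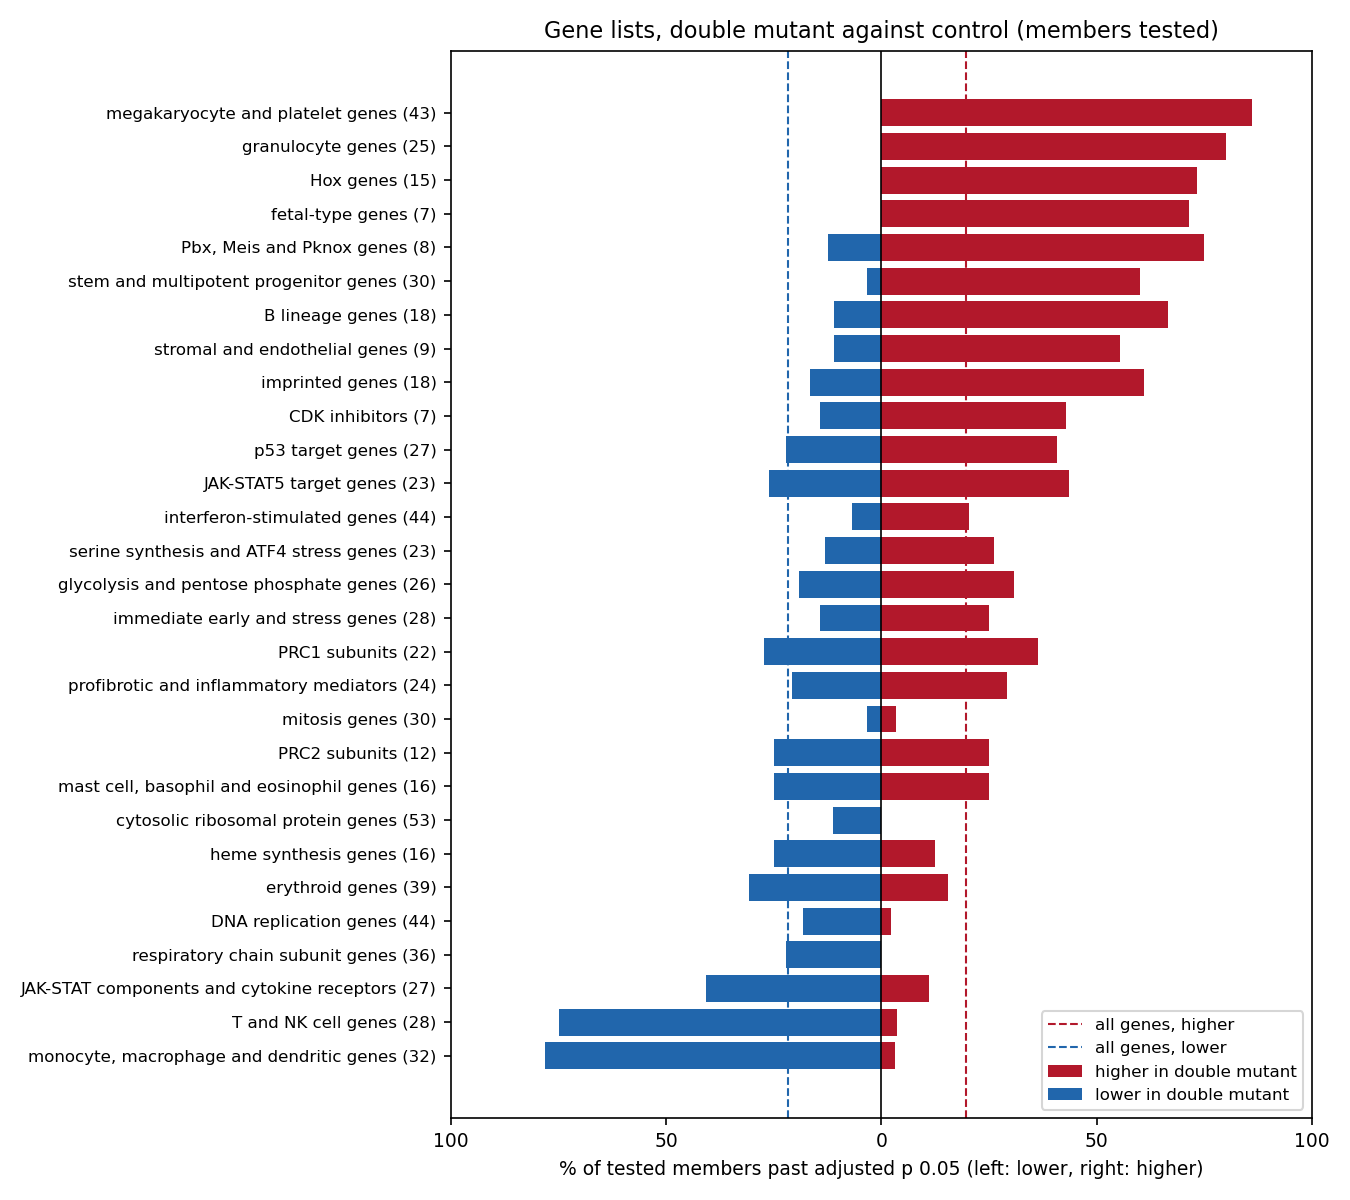
Share of the tested members of each gene list (rows, number tested in brackets) called higher (red, to the right) or lower (blue, to the left) in the double mutant against control. Dashed lines mark the shares over all genes, 19.7% higher and 21.7% lower. Megakaryocyte, granulocyte and Hox lists lie far to the right and the monocyte and T cell lists far to the left.

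Megakaryocyte and platelet genes had the largest share of members called higher among the 31 lists. Of 43 tested members 37 were higher and the other 6 did not pass the test, with a median log2 change of 1.78. The count was also 37 without control replicate 5, and 32 with female libraries alone. Against the same controls the median was -0.94 in Ezh2 -/- alone and 1.26 in V617F alone. Against Ezh2 -/- alone 42 of the 43 were higher in the double mutant (19.1% of all genes were higher in that comparison), and against V617F alone 6 were higher (13% of all genes). The summed level was 2429 to 3527 CPM in double mutants, 471 to 688 CPM in Ezh2 -/- alone, 908 to 3551 CPM in V617F alone and 589 to 1569 CPM in controls. Every double mutant library lay above every Ezh2 -/- and control library, while V617F replicate 1 reached the highest value of all. In bulk RNA from sorted cells, a larger share of megakaryocyte-primed cells and more RNA of these genes per cell cannot be told apart.

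Among single platelet genes, Pf4, a chemokine of platelet granules, measured 108, 163 and 199 CPM in double mutants, 5.57, 7.1, 7.58 and 9.46 CPM in Ezh2 -/- alone, 36, 82.9, 105 and 182 CPM in V617F alone, and 6.28, 7.81, 13, 39.1 and 48.8 CPM in controls. It was higher than in controls (log2 2.54 ± 0.472, adjusted p = 0.000147) and than in Ezh2 -/- alone (log2 4.04, adjusted p = 4.93e-05), and the difference from V617F alone did not pass the test (log2 0.48, adjusted p = 0.459). Itga2b, which encodes the CD41 integrin chain, measured 174 to 249 CPM in double mutants and 30.8 to 150 CPM in controls (log2 1.22 ± 0.413, adjusted p = 0.02), a call that was lost in female libraries alone and without control replicate 4. Itgb3, its partner chain, measured 54.9 to 105 CPM in double mutants, 3.39 to 6.92 CPM in Ezh2 -/- alone and 5.72 to 33.7 CPM in controls.

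Thbs1 stood above both single mutants as well as controls. It encodes thrombospondin, an adhesive protein released by platelets, and measured 19.4, 27 and 30.6 CPM in double mutants, 1.74 to 2.97 CPM in Ezh2 -/- alone, 1.72 to 6.69 CPM in V617F alone and 0.817 to 3.7 CPM in controls. No double mutant library overlapped any of these. The log2 differences were 3.41 ± 0.458 against controls (adjusted p = 2.44e-06), 3.11 against Ezh2 -/- alone (adjusted p = 0.000118) and 2.46 against V617F alone (adjusted p = 0.000362). P2ry1, the platelet ADP receptor, showed the same order in smaller steps, at 52.3 to 82.7 CPM in double mutants and 28.2 to 43.6 CPM across the libraries of both single mutants.

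**Figure D4:**
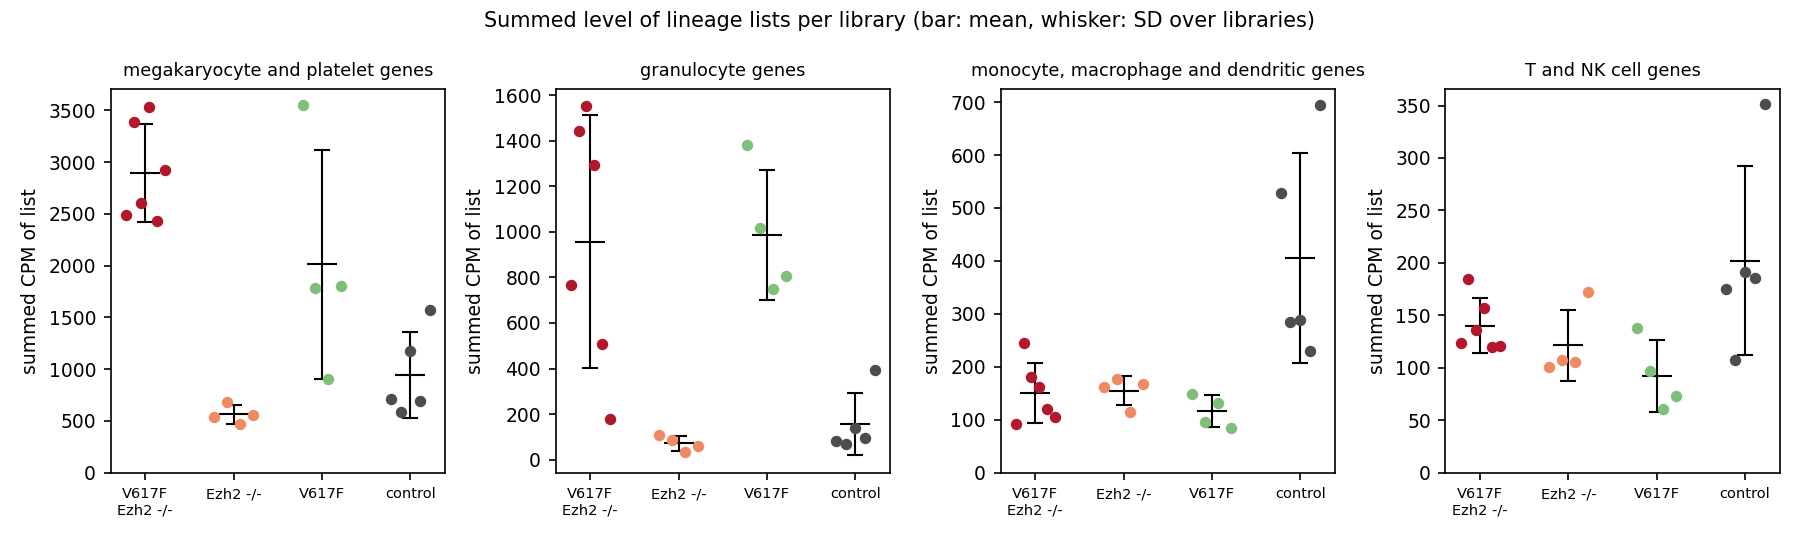
Summed level in CPM (vertical axes, linear) of 4 lineage gene lists in each library of the double mutant, Ezh2 -/- alone, V617F alone and control, with bars for means and whiskers for SD. Megakaryocyte sums of the 6 double mutants lie at 2429 to 3527 CPM, above all controls, while their granulocyte sums spread over 178 to 1551 CPM.

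Podxl was high in every mutant group. It encodes podocalyxin, a sialomucin of blood progenitors and vessel cells, and measured 267, 319 and 390 CPM in double mutants, 74.7, 131, 133 and 134 CPM in Ezh2 -/- alone, 212, 218, 252 and 322 CPM in V617F alone, and 13.7, 14.1, 14.7, 15.4 and 21 CPM in controls. All 14 mutant libraries were above all controls. The double mutant differed from controls by log2 4.32 ± 0.21 (adjusted p = 7.63e-14) and from Ezh2 -/- alone by log2 1.42 (adjusted p = 3.31e-05), and not past the threshold from V617F alone (log2 0.33, adjusted p = 0.19). Since each single mutant was already well above controls, at log2 2.90 and 3.99, the interaction was -2.57 ± 0.265 (adjusted p = 7.07e-06), which means that the double mutant level was below the product of both single fold changes. Fam124a, of little-known function, was alike at 15.2 to 30.7 CPM in double mutants, 9.27 to 17.8 CPM in Ezh2 -/- alone, 16.3 to 22.4 CPM in V617F alone and 1.25 to 1.83 CPM in controls, with an interaction of -3.10.

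Several other genes with large upward changes did not differ past the threshold from Ezh2 -/- alone, while others lay above both single mutants. Rps6ka6, a ribosomal S6 kinase, measured 47, 56.9 and 67 CPM in double mutants and 54.2 to 75 CPM in Ezh2 -/- alone, against 1.85 to 10.7 CPM in V617F alone and 0.703 to 1.87 CPM in controls (log2 5.30 ± 0.319, adjusted p = 3.72e-12). Cnnm1, Kif21a and Hs6st2, a cyclin M family membrane protein, a kinesin motor and a heparan sulfate sulfotransferase, had log2 changes of 3.52, 3.10 and 4.02 against controls, and of -0.27, 0.24 and 0.50 against Ezh2 -/- alone, where they did not pass the test (adjusted p = 0.39, 0.428 and 0.0771). Socs2, a STAT5-induced inhibitor of cytokine signalling, measured 17.6, 20.7 and 25.6 CPM in double mutants, 3.89 to 7.47 CPM in Ezh2 -/- alone, 5.33 to 15.1 CPM in V617F alone and 1.18 to 3.11 CPM in controls. It lay above every library of the other 3 groups (log2 3.27 ± 0.294 against controls, adjusted p = 4.48e-09). Plek2, a pleckstrin family protein of erythroid cells, was higher than in controls by log2 3.12 ± 0.206 (adjusted p = 2.29e-11) and higher than in both single mutants (adjusted p = 0.00193 and 0.00461).

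Targets of JAK2 and STAT5 signalling were higher in part. Of 23 tested members 10 were higher and 6 lower (median log2 0.30), and the counts were 10 and 3 without control replicate 5. Cish, a feedback inhibitor, measured 23.7, 30 and 41.2 CPM in double mutants, 4.45 to 7.45 CPM in Ezh2 -/- alone, 13.8 to 23.5 CPM in V617F alone and 5.03 to 9.32 CPM in controls (log2 2.16 ± 0.213, adjusted p = 2.21e-08), and differed from V617F alone (log2 0.76, adjusted p = 0.0106). Osm, a cytokine of the interleukin 6 family, measured 15.7 to 21.2 CPM in double mutants, 11.8 to 15.7 CPM in V617F alone and 5.12 to 7.5 CPM in controls. Erfe, the erythroid hormone that restrains hepcidin, measured 10.8 to 24.7 CPM in double mutants, 11.7 to 18.9 CPM in V617F alone and 2.28 to 2.9 CPM in controls. Ccnd2, a D-type cyclin, averaged 302 ± 10.2 CPM in double mutants and 182 ± 19.4 CPM in controls (SD, n = 6 and 5). The genes called lower in this list included Spry4, at 2.74 to 3.5 CPM in double mutants and 4.71 to 7.28 CPM in controls. Among 27 JAK-STAT components and cytokine receptors 3 were higher and 11 lower, and Stat5a itself measured 178 to 193 CPM in double mutants against 217 to 243 CPM in controls (log2 -0.31 ± 0.0399, adjusted p = 1.57e-06).

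Most erythroid genes did not pass the test, but some globin genes and the summed erythroid level were lower. Among the other globin genes, Hbb-bt and Hbb-b2 did not pass the test (log2 -0.28, adjusted p = 0.437). Hba-x was higher (log2 3.89, adjusted p = 0.000433). Of 39 tested erythroid genes 6 were higher and 12 lower (median log2 -0.12), a share called of 46.2%, beside 41.4% of all genes. The 39 genes summed to 8995 to 11370 CPM in double mutants, 13240 to 14600 CPM in Ezh2 -/- alone, 10850 to 14210 CPM in V617F alone and 11430 to 13860 CPM in controls, so the double mutants lay below all controls. The sum leans on Car1, 1 of the 39, which held 1650 to 2340 CPM in double mutants and 2850 to 3710 CPM in controls. It is therefore no measure of a fall across the list. The beta-globin genes Hbb-bs and Hbb-b1 had the same levels, at 26.2, 34.5 and 51.2 CPM in double mutants and 46.5 to 167 CPM in controls (log2 -1.65 ± 0.382, adjusted p = 0.00131). The alpha-globin genes Hba-a1 and Hba-a2 had identical counts, averaging 34.8 ± 8.25 CPM in double mutants and 70.4 ± 27.3 CPM in controls (log2 -1.26 ± 0.311, adjusted p = 0.0022). Both pairs are uncertain, since each rests on shared reads yet counts as separate members among the 12. Of 16 heme synthesis genes 2 were higher and 4 lower, a share called of 37.5% that is near the 41.4% of all genes. Alas2, the erythroid enzyme that starts heme synthesis, measured 5.36, 6.05 and 9.85 CPM in double mutants and 8.95 to 23.6 CPM in controls (log2 -1.42 ± 0.303, adjusted p = 0.000615). Car1, the carbonic anhydrase of erythroid progenitors, measured 1650, 1800 and 2340 CPM in double mutants, 2770 to 4310 CPM in Ezh2 -/- alone, 2820 to 4090 CPM in V617F alone and 2850 to 3710 CPM in controls (log2 -0.78 ± 0.16, adjusted p = 0.000396). Its double mutant libraries lay below all others. Slc40a1, the iron exporter ferroportin, measured 69.3 to 93.1 CPM in double mutants and 127 to 152 CPM in controls, and was lower than in both single mutants (adjusted p = 0.000255 against Ezh2 -/- alone and 0.000624 against V617F alone). Against Ezh2 -/- alone 16 of the 39 erythroid genes were lower and 2 higher. Of 44 DNA replication genes 8 were lower and 1 higher against controls (4 lower with female libraries alone). This share called of 20.5% is below the 41.4% of all genes. Against Ezh2 -/- alone 33 of the 44 were lower (22.5% of all genes were lower in that comparison).

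Genes of other blood lineages moved with the double mutant, and their part in the other results was not tested. Of 25 tested granulocyte genes 20 were higher and the other 5 did not pass the test (median log2 2.63), and 23 were higher without control replicate 5. S100a9, a calcium-binding protein of neutrophils, measured 23.7, 126 and 215 CPM in double mutants, 3.06 to 14.8 CPM in Ezh2 -/- alone, 86 to 187 CPM in V617F alone and 7.12 to 20 CPM in controls (log2 3.08 ± 0.503, adjusted p = 3.16e-05). The summed granulocyte level was 178 CPM in double mutant replicate 6 and 509 CPM in replicate 5, against 768 to 1551 CPM in the other 4, 33.2 to 110 CPM in Ezh2 -/- alone, 749 to 1381 CPM in V617F alone and 66.5 to 393 CPM in controls. The lowest double mutant lay within the range of the controls. S100a9 did not differ past the threshold from V617F alone (log2 -0.33). In replicate 6, Pf4, Thbs1 and Podxl measured 199, 27.6 and 342 CPM. Whether their levels go with the granulocyte level over the libraries was not tested.

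Monocyte and T cell genes were mostly lower than in controls, and B lineage genes were not. The fall was also seen in V617F alone against the same controls, with a median log2 of -2.025 for monocyte and -2.595 for T and NK genes. In Ezh2 -/- alone these medians were -1.03 and -0.68. Between double mutant and V617F alone, 0 monocyte genes were lower and 1 higher, and 1 T and NK gene was lower and 3 higher. Of 32 tested monocyte, macrophage and dendritic genes 25 were lower and 1 higher (median log2 -1.74), but without control replicate 5 the count lower was 18, and 11 when 2 Ezh2 +/- libraries were left out as well. Csf1r, the macrophage growth factor receptor, measured 0.315, 2.9 and 4.68 CPM in double mutants and 6.61, 8.99, 12.2, 14.7 and 25.8 CPM in controls. Cd68, a lysosomal protein of macrophages, measured 2.24 to 3.04 CPM in double mutants and 5.12 to 7.77 CPM in controls (log2 -1.40 ± 0.206, adjusted p = 8.3e-06). Hmox1, the heme-degrading enzyme of macrophages, had the largest downward change by the naming rule, at 0.567, 2.43 and 5.03 CPM in double mutants and 9.69, 10.7, 14.2, 18.7 and 32.3 CPM in controls (log2 -3.03 ± 0.578, adjusted p = 0.000191). Of 28 T and NK cell genes 21 were lower and 1 higher, or 15 lower without control replicate 5. Cd3e, a chain of the T cell receptor complex, measured 0.0315 to 0.207 CPM in double mutants and 0.996 to 5.41 CPM in controls, where libraries with 3 counts would show 0.0505 to 0.0861 CPM. Of 18 B lineage genes 12 were higher and 2 lower, but 1 was higher when only the groups compared entered the fit and 2 with female libraries alone.

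Stem and progenitor genes were higher as a group, with 18 of 30 higher and 1 lower (median log2 0.95, against -0.92 in Ezh2 -/- alone and 0.59 in V617F alone over the same controls). With female libraries alone 11 were higher. Mycn, a proto-oncogene of stem cells, measured 24.2 to 73.8 CPM in double mutants, 2.98 to 5.23 CPM in Ezh2 -/- alone, 9.62 to 71 CPM in V617F alone and 5.49 to 17.8 CPM in controls. Mecom, a zinc finger factor that maintains blood stem cells, measured 3.87 to 16.1 CPM in double mutants and 0.703 to 3.88 CPM in controls, ranges that touch at their ends. Kit, the stem cell factor receptor and a usual surface marker of progenitors, was the one called lower, at 378 to 503 CPM in double mutants and 502 to 623 CPM in controls (log2 -0.32 ± 0.0918, adjusted p = 0.0064).

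Targets of the p53 tumour suppressor went both ways, with 11 of 27 higher and 6 lower. Phlda3, a p53-induced inhibitor of AKT, measured 7.56 to 11.5 CPM in double mutants, 14.7 to 18.4 CPM in Ezh2 -/- alone, 2.68 to 3.83 CPM in V617F alone and 3.32 to 4.3 CPM in controls, and its double mutant level was below that of Ezh2 -/- alone (log2 -0.76, adjusted p = 0.000446). Zmat3, an RNA-binding p53 target, measured 40.3 to 53.5 CPM in double mutants and 43.1 to 56.4 CPM in Ezh2 -/- alone, against 21.8 to 28.7 CPM in V617F alone and 19.2 to 31.4 CPM in controls. Trp53 itself was slightly lower (log2 -0.21 ± 0.0751, adjusted p = 0.0246).

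Transcription factors of the NF-kappaB and interferon pathways were among the genes with the largest downward change. Rel, Relb and Irf1 measured 2.7 to 8.44, 3.56 to 5.78 and 48.3 to 111 CPM in double mutants and 12.8 to 23.3, 10.7 to 17.6 and 138 to 298 CPM in controls. Their log2 changes were -1.95 ± 0.284, -1.62 ± 0.205 and -1.61 ± 0.319. Relb was also lower than in Ezh2 -/- alone (adjusted p = 0.00424), but not past the threshold against V617F alone (log2 0.21, adjusted p = 0.503). Cxcl10, an interferon-induced chemokine, measured 2.63, 4.97 and 8.83 CPM in double mutants, 8.81 to 18.9 CPM in Ezh2 -/- alone, 4.2 to 9.26 CPM in V617F alone and 19.2, 20.2, 23.2, 24.3 and 28.4 CPM in controls. Of 44 interferon-stimulated genes 9 were higher and 3 lower against controls (27.3% called, beside 41.4% of all genes). The count higher ran from 3 with female libraries alone to 20 with control replicate 5 and 2 Ezh2 +/- libraries left out. Per1, a circadian clock repressor, was lower at 63.1 to 114 CPM in double mutants and 221 to 304 CPM in controls. Of 28 immediate early and stress genes 7 were higher and 4 lower, a share called of 39.3% that is near the 41.4% of all genes, and 1 was lower without control replicate 5. Among them Fos measured 222 to 392 CPM in double mutants and 82.1 to 143 CPM in controls. Egr1 measured 527 to 674 CPM in double mutants and 145 to 317 CPM in controls, and Atf3 measured 12.6 to 43.2 CPM in double mutants and 36.2 to 70.3 CPM in controls.

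Genes beyond both single mutants were sought as those called in the same direction against controls, Ezh2 -/- alone and V617F alone. There were 374 higher (2.69%) and 614 lower (4.41%), and with no overlap of libraries 206 in each direction (1.48% of tested genes). The 3 comparisons share the 6 double mutant libraries. Apart from Thbs1 and Ltbp4, a matrix protein that binds latent TGF-beta, the higher genes included Hnf4a, a nuclear receptor best known in liver, at 10.1, 10.6 and 19.3 CPM in double mutants, 4.36 to 4.95 CPM in Ezh2 -/- alone, 2.8 to 5.2 CPM in V617F alone and 3.25 to 5.49 CPM in controls. Slc16a3, the lactate exporter MCT4, measured 7.89, 10.8 and 15.4 CPM in double mutants and 2.25 to 5.13 CPM over the libraries of the other 3 groups. Kcnj5, a potassium channel, measured 21.2 to 36.5 CPM in double mutants and at most 12 CPM elsewhere. Serpina3g, a protease inhibitor of blood cells, measured 139 to 323 CPM in double mutants and 16.1 to 28.1 CPM in controls 1 to 4, but 127 CPM in control replicate 5, and its call against V617F alone was lost with female libraries alone, with no filter on low counts, without V617F replicate 2, 3 or 4 and without double mutant replicate 2 or 4. The call of Serpine2, a protease inhibitor, against V617F alone was lost with female libraries alone and without V617F replicate 2, 3 or 4.

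**Figure D5:**
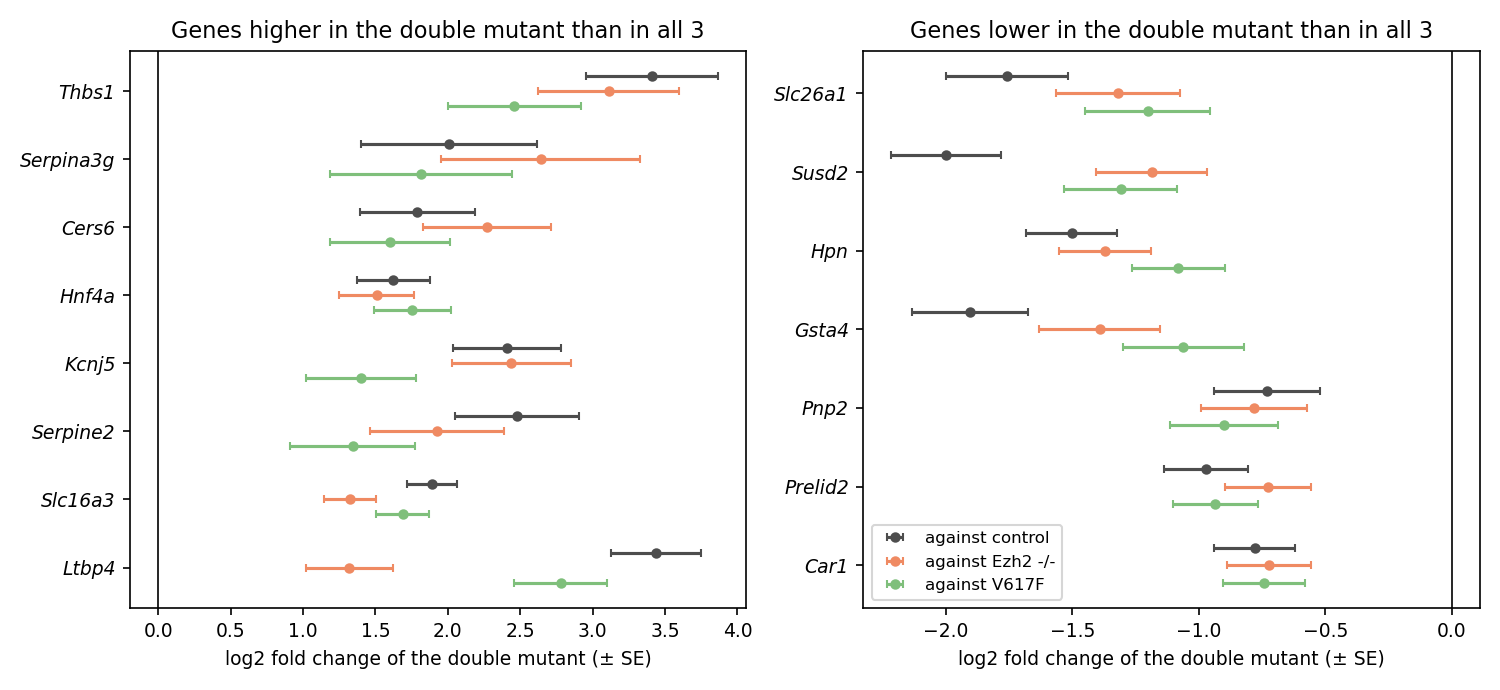
Log2 fold changes ± SE of the double mutant (horizontal axis) against control, Ezh2 -/- alone and V617F alone for the 8 higher and 7 lower genes named. Thbs1 lies at 3.41, 3.11 and 2.46 in the left panel, and Hpn at -1.50, -1.37 and -1.08 in the right panel.

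Among the genes below all 3 groups was Hpn, a membrane serine protease, which measured 24.3 to 42.2 CPM in double mutants, 78.7 to 93.7 CPM in Ezh2 -/- alone, 54.3 to 83.2 CPM in V617F alone and 83.8 to 104 CPM in controls. Slc26a1, a sulfate transporter, measured 6.07 to 9.74 CPM in double mutants and 13.7 to 32.1 CPM over the libraries of the other 3 groups. Susd2, a membrane protein, measured 4.04 to 6.62 CPM in double mutants and 7.9 to 26.2 CPM over the others. Gsta4, a glutathione transferase, measured 3.36 to 4.29 CPM in double mutants and 8.4 to 27.7 CPM in controls. Of 36 tested respiratory chain subunits 8 were lower against controls (21.7% of all genes, and 4 subunits without control replicate 4). Against Ezh2 -/- alone 29 were lower (22.5% of all genes), and against V617F alone 26 were lower (13.6% of all genes). The difference between these counts was not tested.

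The interaction asks whether the double mutant change from control differs from the sum of both single log2 changes. It was called in 2663 genes (19.1%), 1180 positive (8.47%) and 1483 negative (10.6%), but the count was 297 without Ezh2 -/- replicate 3, 4633 without V617F replicate 1 and 128 with female libraries alone. Among the positive genes, Slc35d3, a transporter needed for platelet granules, measured 37.8, 54.5 and 65.3 CPM in double mutants, 2.31 to 5.24 CPM in Ezh2 -/- alone, 14.8 to 41.8 CPM in V617F alone and 5.58 to 19.6 CPM in controls (interaction 2.54 ± 0.6, adjusted p = 0.015). Its call was lost without Ezh2 -/- replicate 3, as was that of Cd74 described next, which was also lost without control replicate 1 and with female libraries alone. Hnf4a (interaction 1.64 ± 0.361, adjusted p = 0.0125) and Slc16a3 (interaction 1.12 ± 0.247, adjusted p = 0.0125) were near control levels in both single mutants. Cd74, the invariant chain of antigen presentation, also had a positive interaction (2.83, adjusted p = 0.0195), with 9.27 to 60.2 CPM in double mutants, 15.8 to 33.2 CPM in Ezh2 -/- alone, 11.2 to 31.5 CPM in V617F alone and 56 to 179 CPM in controls. Negative interactions beside Podxl included Sdc1, the proteoglycan syndecan, at 13.6 to 22 CPM in double mutants, 28.5 to 37.3 CPM in Ezh2 -/- alone, 9.63 to 13 CPM in V617F alone and 4.48 to 8.19 CPM in controls.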

How the data were processed

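RNA from 230,000 flow-sorted MEPs per library was sequenced on an Illumina platform, per the labels' protocols. Reads were aligned with STAR to mm9, per the submitters' processing notes; the sources used here give no aligner version, counting tool, annotation or use of strand. The values are raw read counts per gene as deposited by the authors, for 18834 Entrez genes. Gene symbols came from RefSeq (18772 matched). Totals of 31.6 to 59.4 M counts make 3 counts equal to 0.0505 to 0.095 CPM, which covers counting error only.

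Genes passing filterByExpr (minimum count 10, minimum total 15) entered edgeR 4.0.16 (R 4.3.3) with TMM scaling and a robust quasi-likelihood fit of group and sex over all 29 libraries, with Benjamini-Hochberg adjustment over 13928 genes. The biological coefficient of variation was 18.1%. CPM levels were computed from the deposited counts with TMM-scaled library sizes, and fold changes come from the fit. Double mutant and control replicates differed beyond counting noise in every pair (chi-square over its degrees of freedom at least 11.8), and all 29 matched their labelled sex. On simulated counts for the double mutant against control, 75 of 100 genes changed by log2 1 and 50 of 100 changed by log2 0.5 were recovered. Of 13728 unchanged genes 1 was called. Only these few genes were changed and no library stood apart, whereas 41.4% of genes were called in the data. The recovery and false calls therefore do not carry over to the calls reported here.

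Named genes were fixed genes (Ezh2, Jak2, Podxl, Lin28b and Pf4), the 15 with the largest change per direction, up to 5 per list and direction, and 8 per direction beyond both single mutants and for the interaction. The rules other than that for lists required a mean log2 CPM of at least 2, and those for the largest changes and for genes beyond both single mutants also no overlap between groups. Some genes that the rule names are not reported here. Gata1 and Klf1 fall outside the rule and were chosen as defining genes of MEPs. The compared groups and the 31 gene lists were chosen with earlier results of these data known. Alternatives were RLE scaling, no filter, DESeq2 1.42.0, only the groups compared, no sex term, female libraries alone, a replicate block, a test against a 1.5-fold change, and leaving out libraries. In 9 sets, 18 genes had identical counts, and list counts take them as separate members.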

Additional observations from a re-analysis of the deposited data

Results flagged for a closer look

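The 6 double mutants and the 5 controls were each examined for a library far from the rest, per gene or list sum. Of 146 such groups 14 held one, and chance gives about 1 in 20. The single mutants were not examined. Replicate 5 accounted for 9 of the 11 found among the controls. Its Serpina3g level was 127 CPM, against 16.1 to 28.1 CPM in the other 4, its Per1 level 304 against 221 to 245 CPM, and its B3gnt7 level 2.45 against 0.995 to 1.39 CPM. Its Car1 level was 2850 CPM, against 3540 to 3710 CPM in the others. Summed levels in control replicate 5 were 393 CPM for granulocyte genes (66.5 to 138 in the others), 84.3 CPM for markers that the sort should remove (11.3 to 18.3), 3922 CPM for MEP identity genes (4248 to 4292), 1901 CPM for PRC2 genes (2061 to 2125) and 1011 CPM for imprinted genes (1104 to 1124). Control replicate 3 stood apart for Podxl at 21 CPM, against 13.7 to 15.4 CPM, and for Gsta4 at 27.7 CPM, against 8.4 to 13.8 CPM. Double mutant replicate 5 stood apart for Cnnm1 at 24.9 CPM, against 15.6 to 18.6 CPM, for Rel at 8.44 CPM, against 2.7 to 4.48 CPM, and for Relb at 5.78 CPM, against 3.56 to 4.19 CPM.

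The effect of V617F differed between mice with and without Ezh2 in 33 named genes by edgeR's interaction test, with adjusted p between 7.07e-06 for Podxl and 0.048 for Pf4. Of these genes, 16 were named because their interaction was called, so their count is fixed by that choice. Most of the others were named for double mutant levels far from controls or beyond both single mutants. Those levels enter the interaction, so these genes are not independent support either. Over all genes the interaction count was 128 with female libraries alone and 297 without Ezh2 -/- replicate 3. Positive values mean a double mutant level above that given by both single changes together. The larger positive log2 interactions were Cd74 2.83, H2-Aa 2.72, H2-Eb1 2.67, Oas2 2.61, Slc35d3 2.54, Selp 2.54, Tcf7 2.46, Itgb3 2.29. The smaller ones were Thbs1 2.16, Cers6 2.08, Pf4 1.99, Hnf4a 1.64, Slc16a3 1.12, Relb 0.99, Rec8 0.66, Jak2 0.28. The larger negative log2 interactions were Fam124a -3.10, Podxl -2.57, Rps6ka6 -2.31, Sfrp4 -1.94, Cpd -1.79, Cda -1.79, Rnf128 -1.76, Sdc1 -1.73. The smaller ones were B3gnt7 -1.56, Plek2 -1.46, Hs6st2 -1.32, Cnnm1 -1.09, Pnp2 -0.95, Hpn -0.95, Car1 -0.69, Prelid2 -0.69, Ezh2 -0.35.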

How the results depend on the processing

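Over the 16 to 28 alternatives run for each, 0 of 291 gene results reversed, 138 stayed on their side of the threshold in every one, 152 lost their call in at least 1, and 1 (Oas2 against control) gained one. Requiring a change over 1.5-fold left 1371 genes against control (1071 higher, 300 lower), 147 of the list members, 804 against Ezh2 -/- alone (708 and 96), 482 against V617F alone (465 and 17) and 28 interactions (17 and 11), and Jak2 at log2 0.16 then had an adjusted p of 1. Fitting only the groups compared gave 1075 genes lower against V617F alone and 1818 positive interactions. Female libraries alone gave 2268 genes against V617F alone (902 lower) and 128 interactions (87 and 41), from fewer libraries. With control replicate 5 and Ezh2 +/- replicates 2 and 5 left out, 1199 interactions were called (467 and 732). Leaving out 1 library at a time gave 4834 to 5882 genes against control (2289 to 2971 higher, 2223 to 3093 lower), 292 to 348 list members, 3197 to 6112 genes against Ezh2 -/- alone (1592 to 2839 higher, 1605 to 3313 lower), 1954 to 5151 against V617F alone (1191 to 2545 higher, 763 to 2606 lower) and 297 to 4633 interactions (151 to 2224 positive, 146 to 2409 negative), with Ezh2 at -2.47 to -2.41 and Jak2 at 0.14 to 0.22. The lowest count against Ezh2 -/- alone came without Ezh2 -/- replicate 3, and the lowest and highest against V617F alone came without V617F replicates 4 and 1. Replicate numbers did not pair the libraries: the correlations of same-numbered double mutant and control libraries ran between -0.422 and 0.0156. With a replicate block 5880 genes were called against control and 1623 interactions (835 negative). The cause of these movements was not tested. With 3 counts worth up to 0.095 CPM, genes with 4 counts over all controls, Igf2bp3 and Cdkn2a, are given as levels with no fold.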

Other observations

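Of 16 mast cell, basophil and eosinophil genes 4 were higher and 4 lower against control, near the shares of all genes (19.7% and 21.7%). Prg2, the major basic protein of eosinophil granules, measured 2.93 to 33.6 CPM in double mutants and 1.81 to 4.36 CPM in controls (log2 2.71 ± 0.602, adjusted p = 0.000876), whereas Il1rl1, the interleukin 33 receptor of mast cells, measured 35.4 to 58.6 CPM in double mutants and 90.4 to 113 CPM in controls (log2 -0.98 ± 0.136, adjusted p = 3.53e-06). Of 17 stromal and endothelial genes 9 had enough counts to be tested. Of these 5 were higher and 1 lower, and 2 were higher with female libraries alone. Here too, a gene near 0 in controls can enter the test through mutant libraries alone. Kdr, the main VEGF receptor, measured 12.5 to 18.1 CPM in double mutants, 1.74 to 2.96 CPM in Ezh2 -/- alone, 2.05 to 8.37 CPM in V617F alone and 0.966 to 3.22 CPM in controls, with no overlap between the double mutants and any other group. Among 24 profibrotic and inflammatory mediators 7 were higher and 5 lower (50% called, beside 41.4% of all genes). Pdgfb, a platelet-derived growth factor chain, measured 5.28 to 8.48 CPM in double mutants and 0.953 to 3.27 CPM in controls (log2 1.66 ± 0.496, adjusted p = 0.00951). Ccl3, an inflammatory chemokine, measured 0.295 to 1.14 CPM in double mutants and 1.68 to 7.24 CPM in controls (log2 -2.40 ± 0.525, adjusted p = 0.000778).

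Of 44 interferon-stimulated genes 22 were higher against Ezh2 -/- alone (19.1% of all genes) and 18 against V617F alone (13% of all genes). Usp18, a brake on interferon signalling, measured 11.4 to 22.5 CPM in double mutants, 7.69 to 11.3 CPM in Ezh2 -/- alone, 4.28 to 6.88 CPM in V617F alone and 6.41 to 14.2 CPM in controls, the highest of which was control replicate 5. Of 26 glycolysis and pentose phosphate genes 8 were higher and 5 lower against control (50% called, beside 41.4% of all genes). Eno1, a glycolytic enolase, was higher (log2 0.38 ± 0.051, adjusted p = 2.73e-06), and Taldo1, a pentose phosphate transaldolase, was lower than controls and both single mutants, at 225 to 269 CPM in double mutants and 295 to 414 CPM elsewhere. Of 23 serine synthesis and ATF4 stress genes 6 were higher and 3 lower against control, a share called of 39.1% that is near the share of all genes. Nupr1, a stress-induced chromatin protein, measured 3.06 to 4.63 CPM in double mutants, 0.556 to 0.659 CPM in Ezh2 -/- alone, 1.79 to 8.22 CPM in V617F alone and 0.314 to 0.942 CPM in controls. Of 30 mitosis genes 1 was higher and 1 lower, and of 53 ribosomal protein genes 6 were lower against control, a count that was 0 without control replicate 5.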
